A study of Mus musculus with 13 samples.

Results

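The IL-6 family and its signaling arm were followed through 10 of the 49315 genes counted in the mouse midbrain: the cytokine genes Il6, Osm, Lif and Clcf1, the receptor chain genes Il6ra, Osmr, Lifr and Il6st, the transcription factor gene Stat3 and the feedback inhibitor gene Socs3. They were taken by name as members of the pathway, with earlier results of these data known, and were identified by their Ensembl IDs through GENCODE M21 symbols. RNA-Seq was performed on whole midbrains of 13 male mice on a C57BL/6J background, 8 to 12 weeks of age, after perfusion with saline buffer. Every mouse carried floxed alleles of Ripk3, a kinase gene of necroptosis and inflammation, on both chromosomes and received tamoxifen (60 mg/kg) for 5 days, at least 1 week before the experiment. The groups were Ripk3fl/fl Aldh1l1Cre- mice given saline (Cre- Saline, n = 3) or MPTP (Cre- MPTP, n = 3) and Ripk3fl/fl Aldh1l1Cre+ mice given saline (Cre+ Saline, n = 3) or MPTP (Cre+ MPTP, n = 4). The Cre is a tamoxifen-dependent recombinase under the promoter of the astrocyte gene Aldh1l1, so the deletion concerns astrocytes while the libraries hold RNA of all midbrain cells. MPTP, a toxin that kills dopaminergic neurons, was given at 20 mg/kg once a day for 5 days, and tissue was taken 3 days after the last dose. No group with MPTP and Cre but intact Ripk3 was analysed here.

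Cytokines of the IL-6 family signal through complexes that share gp130, the product of Il6st. IL-6 first binds its own receptor alpha chain (Il6ra), oncostatin M (Osm) uses gp130 with the chain encoded by Osmr, and leukemia inhibitory factor (Lif) uses gp130 with that encoded by Lifr. Janus kinases bound to these chains phosphorylate STAT3, which enters the nucleus and induces, among others, Socs3, whose product binds gp130 and the kinases and shuts the signal off. In the injured brain STAT3 is known as a regulator of reactive astrocytes.

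The libraries held 11489150 to 29397278 counts, with a median of 24907639. Cre- MPTP 1 stood apart: it had the lowest total, 21101 genes with a count against 25432 to 27186 in the other 12 libraries, and a mean correlation of 0.903 with its group against at least 0.944 elsewhere. Cre+ MPTP 2 was the highest of the 4 Cre+ MPTP libraries for 7 of the 10 genes (Il6, Il6ra, Osmr, Lif, Clcf1, Stat3 and Socs3), and markers of muscle summed to 6738 CPM (counts scaled to the library total) in Cre+ MPTP 4. In Cre- MPTP 1 markers of neurons and astrocytes summed to 3893 and 2881 CPM, the lowest of all libraries. Those of endothelium summed to 544 CPM there, the highest. The part of depth, cells or handling in this library was not tested. Markers of the pituitary summed to 617 and 453 CPM in Cre+ Saline 1 and 3 and to at most 84.1 CPM in any other library. The edgeR tests were repeated with each library left out in turn, and changes of calls among the 10 genes are given. Counts of the targeted gene Ripk3 ran from 4 to 11 in Cre- Saline, 6 to 10 in Cre+ Saline, 6 to 40 in Cre- MPTP and 4 to 19 in Cre+ MPTP, too few to check the genotype of single mice. All 10 astrocyte markers and all 9 markers of dopaminergic neurons were detected in every group. The dopaminergic markers summed to 522 to 602 CPM in Cre- Saline and to 380 to 633 CPM in Cre- MPTP mice, which overlapped. For MPTP in Cre- mice none of these 9 passed the edgeR test at an adjusted p under 0.05 (3.18% of all genes did). The library numbers in the file headers fell into a lower and an upper range, whose meaning is not stated, and each group had libraries in both.

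The consensus bound by STAT proteins, TTCNNNGAA (its fixed letters read the same on both strands), was searched for in the RefSeq promoter windows of GRCm38.p6 (250 bases before to 50 after each start site). It occurred in 2726 of 32851 windows (8.3%). Of the 10 genes, 8 had a window, and Osm and Clcf1 had none. Socs3 was the 1 gene of the 8 whose window held a match. The stretch of 250 bases upstream of its RefSeq start site is shown 5′ to 3′ because it carries this match, in capitals, at positions -154 to -146 (chr11:117969367-117969616, minus strand). GENCODE M21 places the match in an intron of a non-coding Socs3 transcript, upstream of the protein-coding one.
Socs3: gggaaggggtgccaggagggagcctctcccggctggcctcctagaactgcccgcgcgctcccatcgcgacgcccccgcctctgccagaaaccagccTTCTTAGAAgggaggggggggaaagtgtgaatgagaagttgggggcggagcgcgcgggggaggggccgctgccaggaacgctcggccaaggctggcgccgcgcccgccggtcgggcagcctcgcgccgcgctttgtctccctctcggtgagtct

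Il6st was the most abundant of the 10 genes in the Cre- Saline midbrain, and Lif, Osm and Il6 were the least abundant. Levels of different genes were compared per length, as CPM divided by the exonic length in kilobases (RPKM). In Cre- Saline mice the level of Il6st was 11.7 ± 2.55 RPKM (SD, n = 3), followed by Stat3 at 5.99 ± 0.798 and Lifr at 5.15 ± 0.510, which did not differ from each other beyond their spread. Socs3 (0.715 ± 0.233), Il6ra (0.622 ± 0.0739) and Clcf1 (0.535 ± 0.0804) came next in RPKM and could not be ordered against each other. Osmr (0.352 ± 0.0513) and Lif (0.195 ± 0.0850) lay lower on the RPKM scale, while Osm and Il6 were at or near 0. Cre+ Saline mice had the same order except that Socs3 stood further from Il6ra, at 1.00 ± 0.0758 against 0.619 ± 0.0543 RPKM.

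In Cre- MPTP mice the order of RPKM levels was different. Socs3 had the highest mean but the widest spread (17.9 ± 14.5 RPKM, SD, n = 3), next to Stat3 (13.5 ± 1.36) and Il6st (13.01 ± 2.51), and these 3 did not differ beyond their spread. Osmr, at 2.17 ± 1.06 RPKM, was now at the level of Il6ra (1.53 ± 0.310). In Cre+ MPTP mice Il6st (13.7 ± 0.955 RPKM, n = 4) again led, ahead of Stat3 (7.44 ± 1.17) and Lifr (6.45 ± 0.820), with Socs3 at 1.97 ± 1.63.

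**Figure D1:**
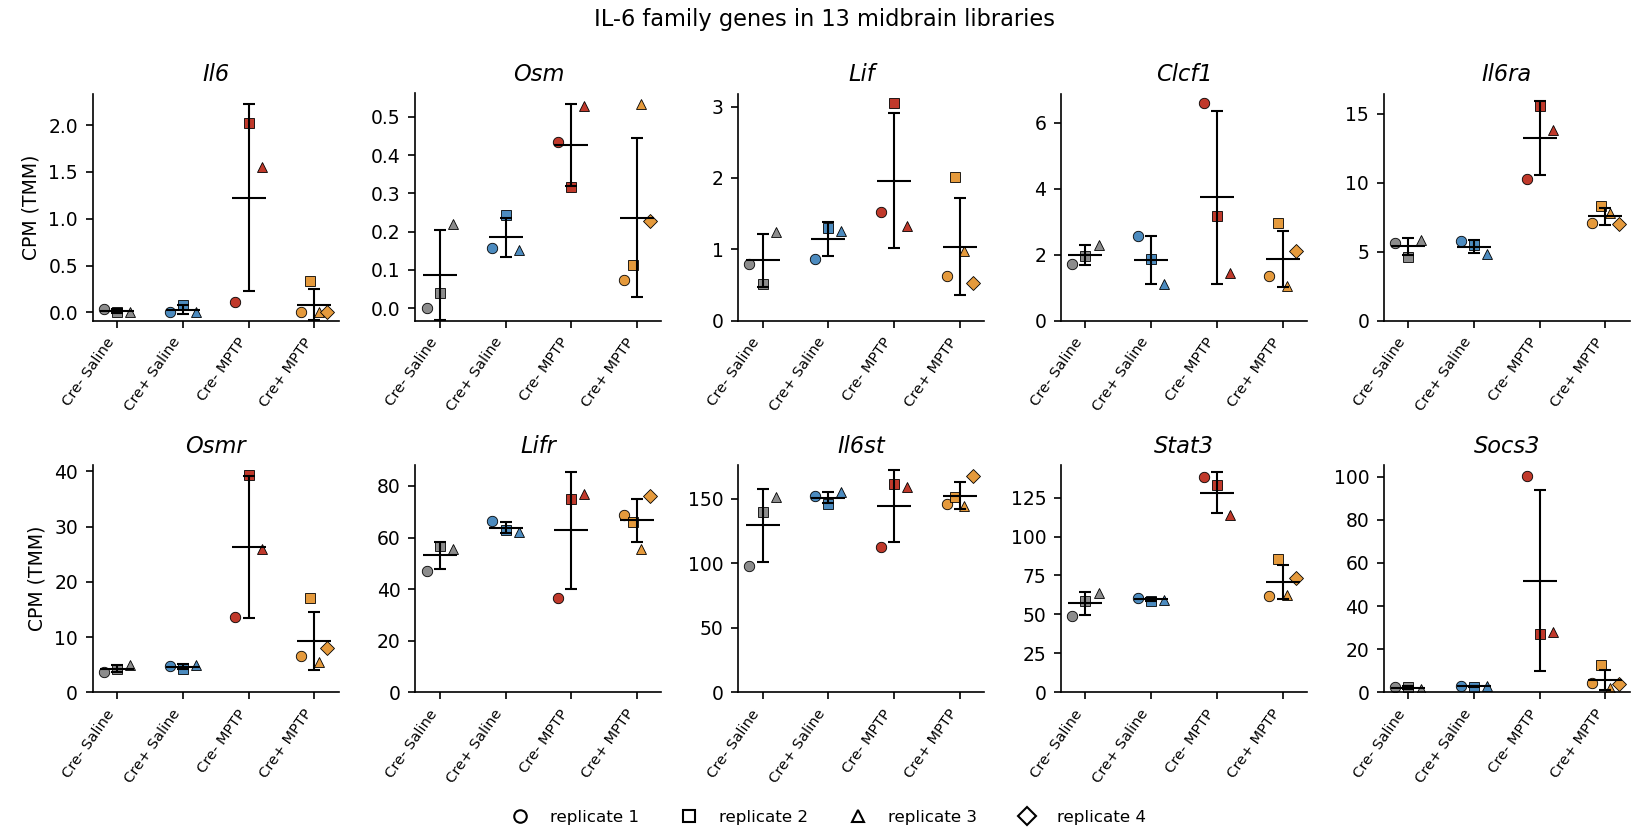
CPM (library-scaled counts, TMM factors, linear axis) of the 10 genes in the 13 libraries. Each point is 1 mouse, its shape gives the replicate number, and the black line and bar are the group mean and SD; Stat3 lies at 114 to 138 CPM in the Cre- MPTP libraries and at 48.9 to 85.6 CPM in the other 10, while Il6st and Lifr overlap between the MPTP and Saline groups.

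MPTP raised 4 of the 10 genes in Cre- mice: Socs3, Osmr, Il6ra and Stat3. These 4 passed edgeR's quasi-likelihood test at an adjusted p under 0.05, among 8 genes with enough counts to be tested, and none of the 8 was called lower. Over all 19360 genes tested, 3.18% were called and 2.23% were called higher. The CPM of 5 of the 8 genes, these 4 and Lif, did not overlap between the groups, as did those of 15.1% of all genes, and the same 5 had an unadjusted p under 0.05, as had 15% of all genes. The median log2 fold change of the 8 genes was 1.19, against 0.03 over all genes tested. In bulk tissue, fewer cells of a type and less RNA per cell cannot be told apart, which applies to every difference below.

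Socs3, the feedback inhibitor, had the largest log2 fold change of the 8 genes tested. It stood at 2.62, 2.27 and 1.31 CPM in Cre- Saline 1 to 3 and at 100, 26.9 and 28.1 CPM in Cre- MPTP 1 to 3. All Cre- MPTP libraries lay above all Saline libraries, and Cre- MPTP 1, the library that stood apart, was far above the other 2 of its group. The log2 fold change was 4.64 (SE 0.718, adjusted p = 0.00338 in edgeR, by its quasi-likelihood test and the Benjamini-Hochberg method), a 24.9-fold rise. It stayed called with each library left out in turn, at 3.74 to 4.93.

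Stat3 encodes the transcription factor itself. Its CPM were 48.9, 58.5 and 63.9 without MPTP and 138, 133 and 114 with it. The groups were well separated and Cre- MPTP 1 lay close to the other 2. The log2 fold change was 1.17 (SE 0.156, adjusted p = 0.00185 in edgeR), a 2.25-fold rise. In the annotation 72 exonic bases of Stat3 overlap Stat5a on the opposite strand, and 242 of Il6ra overlap Gm42809, and the strand setting of the counting is not stated.

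Of the receptor chains, the 2 that select the ligand for IL-6 and oncostatin M rose. Osmr was at 3.65, 4.26 and 4.89 CPM in Cre- Saline mice and at 13.7, 39.3 and 26.0 CPM in Cre- MPTP mice, a log2 fold change of 2.63 (SE 0.441, adjusted p = 0.00521 in edgeR). Il6ra was at 5.64, 4.65 and 5.84 CPM against 10.3, 15.6 and 13.8 CPM, a log2 fold change of 1.30 (SE 0.189, adjusted p = 0.00257 in edgeR). For both genes the groups did not overlap and Cre- MPTP 1 was the lowest of its group. The calls of Osmr, Il6ra and Stat3 held with each library left out, but were lost when the test was run on the 2 groups alone (adjusted p = 0.0535, 0.119 and 0.0762 in edgeR).

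Il6st and Lifr, the shared chain and the chain for leukemia inhibitory factor, were not called. Il6st was at 97.6, 140 and 152 CPM in Cre- Saline mice and at 112, 162 and 159 CPM in Cre- MPTP mice (log2 fold change 0.16, SE 0.179, adjusted p = 0.688 in edgeR). Lifr was at 47.1, 56.8 and 55.6 CPM and at 36.6, 74.9 and 77.0 CPM (log2 fold change 0.25, SE 0.231, adjusted p = 0.617 in edgeR). Cre- MPTP 1 was the lowest of all libraries for Lifr and the lowest of its group for Il6st. Without it, the log2 fold change of Lifr was 0.52 and was called (adjusted p = 0.0127 in edgeR).

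Among the cytokine genes, Il6 was near 0 in all groups but Cre- MPTP, where counts were still low. Saline libraries held 1, 0 and 0 counts of it without Cre and 0, 2 and 0 with Cre, which is at or under the floor of 3 counts per library. Cre- MPTP 1 to 3 had 1, 51 and 47 counts, that is 0.108, 2.02 and 1.55 CPM. So 2 of the 3 libraries carried the signal, and Cre- MPTP 1 was under the floor. Against the floor in Cre- Saline, the mean level was at least 10.6-fold higher, a bound that rests on Cre- MPTP 2 and 3. The exact permutation test (two-sided) gave p = 0.1, the smallest that 3 against 3 libraries allow. Il6 did not pass the count filter, and when every gene with a count was tested its adjusted p was 0.0356 in edgeR.

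Osm, the oncostatin M gene, had 0, 1 and 6 counts in Cre- Saline and 4, 8 and 16 in Cre- MPTP mice. In CPM the groups did not overlap (mean 0.0860 against 0.426; exact two-sided permutation test, p = 0.1, again the smallest possible), but without the filter the adjusted p was 0.412 in edgeR. Lif was at 0.794, 0.508 and 1.24 CPM in Cre- Saline and at 1.52, 3.05 and 1.32 CPM in Cre- MPTP mice, which did not pass the test (log2 fold change 1.22, SE 0.523, adjusted p = 0.307 in edgeR). Clcf1, which encodes cardiotrophin-like cytokine factor 1, overlapped between the groups, and its highest value, 6.61 CPM, was in Cre- MPTP 1. Lif was called by limma voom (1.51 on the log2 scale, adjusted p = 0.0274), and Osm and Clcf1 were not called by edgeR.

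In Cre+ mice none of the 8 genes tested was called with MPTP (0% of all 19360 genes were called). At an unadjusted p under 0.05, 672 genes (3.47%) passed over the whole table and 2 of the 8, Il6ra and Osmr, and DESeq2 and limma voom called none of the 8 either. The median log2 fold change of the 8 was 0.16, against 0.00 over all genes. Socs3 was at 2.88, 2.69 and 3.12 CPM in Cre+ Saline and at 4.47, 12.6, 1.86 and 3.89 CPM in Cre+ MPTP 1 to 4. Only Cre+ MPTP 2 was far from the Saline range, and the log2 fold change fell from 0.96 (SE 0.610) to 0.24 without it.

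The other 3 genes called in Cre- mice lay above the Cre+ Saline libraries in Cre+ MPTP mice. Stat3 was at 60.8, 58.8 and 59.3 CPM in Cre+ Saline and at 61.9, 85.6, 62.5 and 73.5 CPM in Cre+ MPTP mice. Osmr was at 4.77, 4.19 and 4.99 CPM and at 6.65, 17.1, 5.50 and 7.98 CPM. Il6ra was at 5.76, 5.45 and 4.84 CPM and at 7.10, 8.28, 7.81 and 7.02 CPM. For all 3 genes the lowest Cre+ MPTP library lay above the highest Cre+ Saline library, a separation that 9.66% of all genes tested showed in this comparison. The log2 fold changes were 0.25 (SE 0.145) for Stat3, 1.00 (SE 0.403) for Osmr and 0.50 (SE 0.177) for Il6ra, and without Cre+ MPTP 2 they were 0.14, 0.53 and 0.45. Il6 had 0, 6, 0 and 0 counts in the Cre+ MPTP libraries, all of them in Cre+ MPTP 2.

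**Figure D2:**
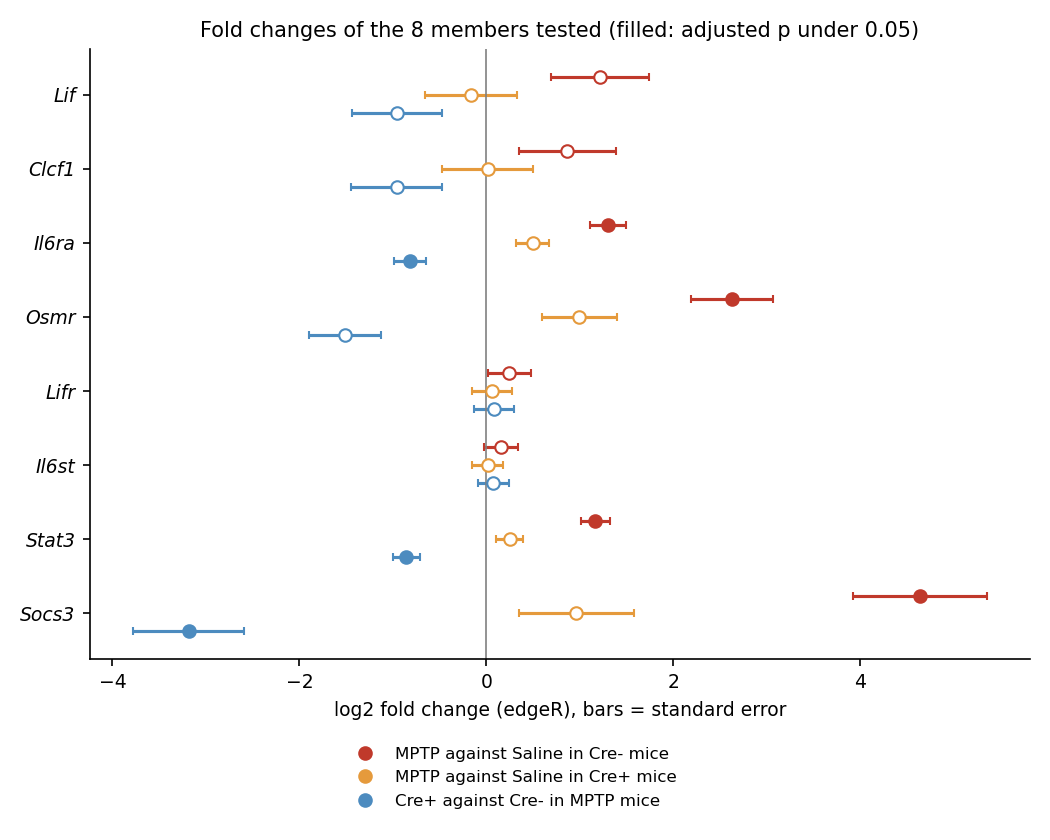
Log2 fold changes (edgeR, horizontal axis) with their standard errors (bars) of the 8 genes tested, in 3 comparisons. Filled points passed an adjusted p of 0.05: Socs3, Stat3, Il6ra and Osmr with MPTP in Cre- mice (red) and Socs3, Stat3 and Il6ra between the genotypes under MPTP (blue); no point is filled for MPTP in Cre+ mice (orange).

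After MPTP, Cre+ mice had less Socs3, Stat3 and Il6ra RNA than Cre- mice. These 3 of the 8 genes were called lower (over all 19360 genes 1.54% were called and 1.03% called lower) and none higher, and the median log2 fold change was -0.91 against 0.03 over all genes. This comparison shares the Cre- MPTP libraries with the first, so the values are set side by side and do not count as separate evidence. The log2 fold change of Socs3 was -3.19 (SE 0.597, adjusted p = 0.0231 in edgeR), 9.1-fold lower. It was -2.29 without Cre- MPTP 1 and -3.89 without Cre+ MPTP 2. That of Stat3 was -0.86 (SE 0.143, adjusted p = 0.0147 in edgeR), 1.81-fold lower. That of Il6ra was -0.81 (SE 0.173, adjusted p = 0.0394 in edgeR), 1.76-fold lower.

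For each of these 3 genes all 4 Cre+ MPTP libraries lay below all 3 Cre- MPTP libraries, a separation shown by 11.3% of all genes in either direction. For Osmr the highest Cre+ library, Cre+ MPTP 2 at 17.1 CPM, lay above the lowest Cre- library, Cre- MPTP 1 at 13.7 CPM. Its log2 fold change of -1.51 (SE 0.386) was not called (adjusted p = 0.0885 in edgeR), but it was called without Cre+ MPTP 2 (-1.98, adjusted p = 0.00992) or without Cre- MPTP 1 (-1.82, adjusted p = 0.00829), by the same edgeR test. Lif (-0.96) and Clcf1 (-0.96) were not called, and the log2 fold changes of Il6st and Lifr were both 0.08, with standard errors of 0.167 and 0.216. Il6 was at 0 to 0.336 CPM in Cre+ MPTP and at 0.108 to 2.02 CPM in Cre- MPTP mice, which overlapped (exact two-sided permutation test, p = 0.114; without the filter, adjusted p = 0.0950 in edgeR).

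The calls between genotypes were less stable than those between treatments. The call of Socs3 was lost without Cre+ MPTP 1, 3 or 4 (adjusted p up to 0.0863 in edgeR), that of Stat3 without Cre+ MPTP 1 or 3 (up to 0.0605), and that of Il6ra without any 1 of the 4 Cre+ MPTP libraries or without Cre- MPTP 3 (up to 0.150). With each MPTP library left out in turn, the log2 fold change was -3.89 to -2.29 for Socs3, -0.95 to -0.79 for Stat3 and -0.96 to -0.68 for Il6ra. All 3 calls were also lost with edgeR on the 2 groups alone and with the replicate block, and that of Il6ra with upper quartile factors, with every gene that has a count and with the header number range as a term. Within the lower range of header numbers, with 3 Cre+ and 2 Cre- MPTP libraries, the log2 ratio of mean CPM was -4.23 for Socs3, -0.93 for Stat3, -0.72 for Il6ra and -1.56 for Osmr. Within the upper range, with 1 library of each genotype, it was -1.10, -0.64, -0.91 and -1.20.

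In Saline mice the genotypes were not distinguished. None of the 8 genes was called (0% of all genes were; 176 genes, or 0.909%, and none of the 8 had an unadjusted p under 0.05), DESeq2 and limma voom called none of them, and the median log2 fold change was 0.17. Lifr and Socs3 did not overlap, with log2 fold changes of 0.26 (SE 0.231) and 0.49 (SE 0.658), while 11.6% of all genes did not overlap in this comparison.

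The difference between the genotypes in their response to MPTP was also tested directly, as an interaction. None of the 8 genes was called (0.0103% of all genes were), although all 8 estimates were negative. The interaction was -0.92 (SE 0.211, adjusted p = 0.200) for Stat3, -3.67 (SE 0.887, adjusted p = 0.229) for Socs3, -0.81 (SE 0.256, adjusted p = 0.479) for Il6ra and -1.63 (SE 0.576, adjusted p = 0.619) for Osmr, in edgeR. The unadjusted p was under 0.05 for these 4, and for 1116 genes in all. DESeq2 called 3 of the 8 and limma voom with sample quality weights 4, so this result depended on the tool. The share of all genes that these tools called was not taken, so their counts are not read as a result about the 8 genes.

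The receptor chains were then set against each other within each library, since the receptor for each ligand pairs a selective chain with the shared one. A ratio of 2 genes in the same library does not depend on how the libraries were scaled. Per length, the ratio of Osmr to Lifr was 0.0660, 0.0639 and 0.0751 in Cre- Saline 1 to 3 and 0.318, 0.448 and 0.288 in Cre- MPTP 1 to 3, a log2 difference of 2.34. In Cre+ MPTP 1 to 4 it was 0.0824, 0.222, 0.0843 and 0.0893, against 0.0569 to 0.0683 in Cre+ Saline mice. The 4 Cre+ MPTP libraries lay between the Saline and the Cre- MPTP libraries without touching either, with Cre+ MPTP 2 nearest to Cre- MPTP. The log2 difference between genotypes under MPTP was -1.67 and between treatments in Cre+ mice 0.80 (exact two-sided permutation tests, p = 0.0571 for both, the smallest that 4 against 3 libraries allow; p = 0.1 for treatment in Cre- mice, the smallest possible). Cre- MPTP 1 had the lowest Lifr of all libraries, which raises this ratio there, and Osmr in CPM overlapped between the MPTP groups. The ratio of Osmr to the shared chain Il6st was 0.111 to 0.223 in Cre- MPTP and 0.0348 to 0.104 in Cre+ MPTP mice. At 0.111 and 0.104, Cre- MPTP 1 and Cre+ MPTP 2 lay close to each other.

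The ratio of Il6ra to Il6st was also highest in Cre- MPTP mice. It was 0.0428 to 0.0741 in Cre- Saline, 0.0401 to 0.0486 in Cre+ Saline, 0.111 to 0.124 in Cre- MPTP and 0.0538 to 0.0703 in Cre+ MPTP mice. Cre- Saline 1, at 0.0741, lay above all Cre+ MPTP libraries. Cre- MPTP 1, which stood apart by depth and by sums of markers, lay within the narrow range of its group here. In contrast, the ratio of Lifr to Il6st overlapped in all 4 groups, at 0.394 to 0.519, 0.432 to 0.469, 0.351 to 0.519 and 0.413 to 0.507 in the same order, with log2 differences of 0.01 to 0.06 in the 4 comparisons (exact two-sided permutation tests, p = 0.6286 to 1). In all, 20 comparisons of 5 ratios were made; since the smallest possible p was 0.0571, none could pass 0.05 and no adjustment was applied.

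**Figure D3:**
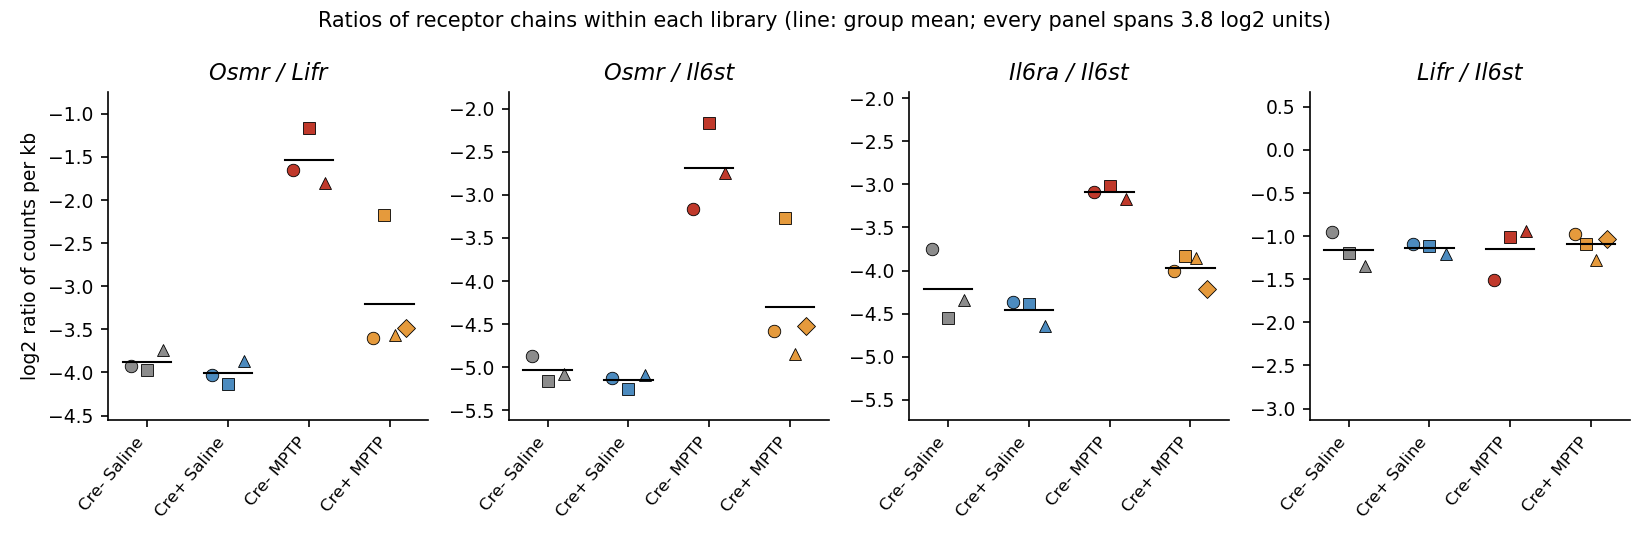
Log2 ratios of counts per kilobase between receptor chain genes in each of the 13 libraries (points, shaped by replicate as in the plot of CPM) with group means (lines); all panels span the same number of log2 units. Osmr/Lifr is -1.80 to -1.16 in Cre- MPTP and -4.14 to -3.73 in the Saline libraries, and Lifr/Il6st overlaps in every group.

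Socs3 was also set against Stat3, the gene of the factor that induces it. Per length, this ratio was 0.0678 to 0.177 in Cre- Saline, 0.150 to 0.174 in Cre+ Saline, 0.667 to 2.40 in Cre- MPTP and 0.0982 to 0.485 in Cre+ MPTP mice. The log2 difference was 3.25 for MPTP in Cre- mice (exact two-sided permutation test, p = 0.1) and -2.37 between genotypes under MPTP (p = 0.0571), each the smallest possible p. In Cre+ mice the treatment groups overlapped (0.40, exact permutation test, p = 0.571).

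The rest of the pathway was described by lists of its other parts. None of the 5 tested of 8 other family cytokines (among them Cntf, Ctf1 and Il11) and none of the 4 other receptors (Il11ra1, Cntfr, Il27ra and Il31ra) was called in any comparison by edgeR, with medians of the log2 fold change of 0.62 and -0.06 for MPTP in Cre- mice; 1 cytokine gene and no receptor gene had an unadjusted p under 0.05 there, and limma voom called 1 of each. Of 10 kinases, adaptors and sheddases 1 was called with MPTP in Cre- mice (3.18% of all genes). This was Ptpn11, the phosphatase SHP-2 recruited by gp130 (0.53, SE 0.131, adjusted p = 0.0493 in edgeR). That call was lost in 4 of 6 fits that left out 1 Cre- library, Cre- MPTP 2 and 3 among them (0.40 to 0.63 over the 6). It was also lost in 6 of 11 other fits, edgeR on the 2 groups alone among them (adjusted p = 0.715).

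Stat2, a STAT gene of interferon signaling, rose by 0.63 on the log2 scale with MPTP in Cre- mice (SE 0.142, adjusted p = 0.0303 in edgeR). That call was lost without Cre- MPTP 2 or 3 or Cre- Saline 1 or 2 (0.52 to 0.73 over the 6 fits that left out 1 Cre- library). Of 14 other negative regulators, including the other SOCS genes, 1 was called with MPTP in Cre- mice (3.18% of all genes). This was Ptpn6, the phosphatase SHP-1 of blood-derived cells and microglia (1.45, SE 0.187, adjusted p = 0.00154 in edgeR). Its call was lost with edgeR on the 2 groups alone (adjusted p = 0.0797). Socs3 was the 1 SOCS gene called. No gene of these lists of other parts was called by edgeR with MPTP in Cre+ mice (0% of all genes) or between the genotypes under MPTP (1.54% of all genes).

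Known targets of STAT3 rose with MPTP in Cre- mice: 14 of the 24 tested (of 27 listed) were called higher and none lower (2.23% and 0.956% of all genes), with a median log2 fold change of 2.33 (0.03 over all genes). Between the genotypes under MPTP 12 of the 24 were called lower (1.03% of all genes), with a median of -1.83 (0.03 over all genes). With MPTP in Cre+ mice none was called, but neither was any other gene (0% of all genes), and the median was 0.28. In the interaction none of the 24 was called (0.0103% of all genes), with a median of -1.95. An unadjusted p under 0.05 was found there for 16 of them (5.76% of all genes). DESeq2 called 9 targets in the interaction and limma voom 13, and the share of all genes was not taken for these tools. The list holds many genes that other inflammatory factors also induce, and it was written with results of these data known. The count between genotypes was 3 without Cre+ MPTP 1 or 3 and 5 without Cre+ MPTP 4, and 12 to 17 without any other 1 of the MPTP libraries. It was 0 with edgeR on the 2 groups alone and 0 with the replicate block, and 19 with limma voom. In Cre+ mice 7 targets had an unadjusted p under 0.05 with MPTP (3.47% of all genes), and DESeq2 and limma voom called 4 each.

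By p, the leading targets in Cre- mice were Il4ra, Icam1, Lcn2 and A2m. Icam1, the adhesion molecule that leukocytes bind on endothelium and glia, was at 3.55 ± 0.366 CPM in Cre- Saline, 59.5 ± 8.54 in Cre- MPTP and 10.4 ± 6.41 in Cre+ MPTP mice (SD, n = 3, 3 and 4), with log2 fold changes of 4.07 (SE 0.411, adjusted p = 0.000628) for MPTP in Cre- mice and -2.53 (SE 0.344, adjusted p = 0.0072) between genotypes, in edgeR. Il4ra, the receptor chain of interleukin-4, rose by 1.93 on the log2 scale with MPTP in Cre- mice and was lower by -1.15 in Cre+ MPTP mice. The acute-phase genes A2m (3.00 and -1.86) and Lcn2 (9.67 and -3.39) had the same signs on the log2 scale, as had Gfap, the intermediate filament of astrocytes (2.60 and -2.20). The calls between genotypes of Icam1, Il4ra, A2m and Gfap were lost with edgeR on the 2 groups alone and with the replicate block. None of these 5 was called for MPTP in Cre+ mice by edgeR, which called 0% of all genes there. The log2 fold changes in that comparison were 1.84 for Icam1, 0.66 for Il4ra, 0.70 for A2m, 5.93 for Lcn2 and 0.01 for Gfap.

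**Figure D4:**
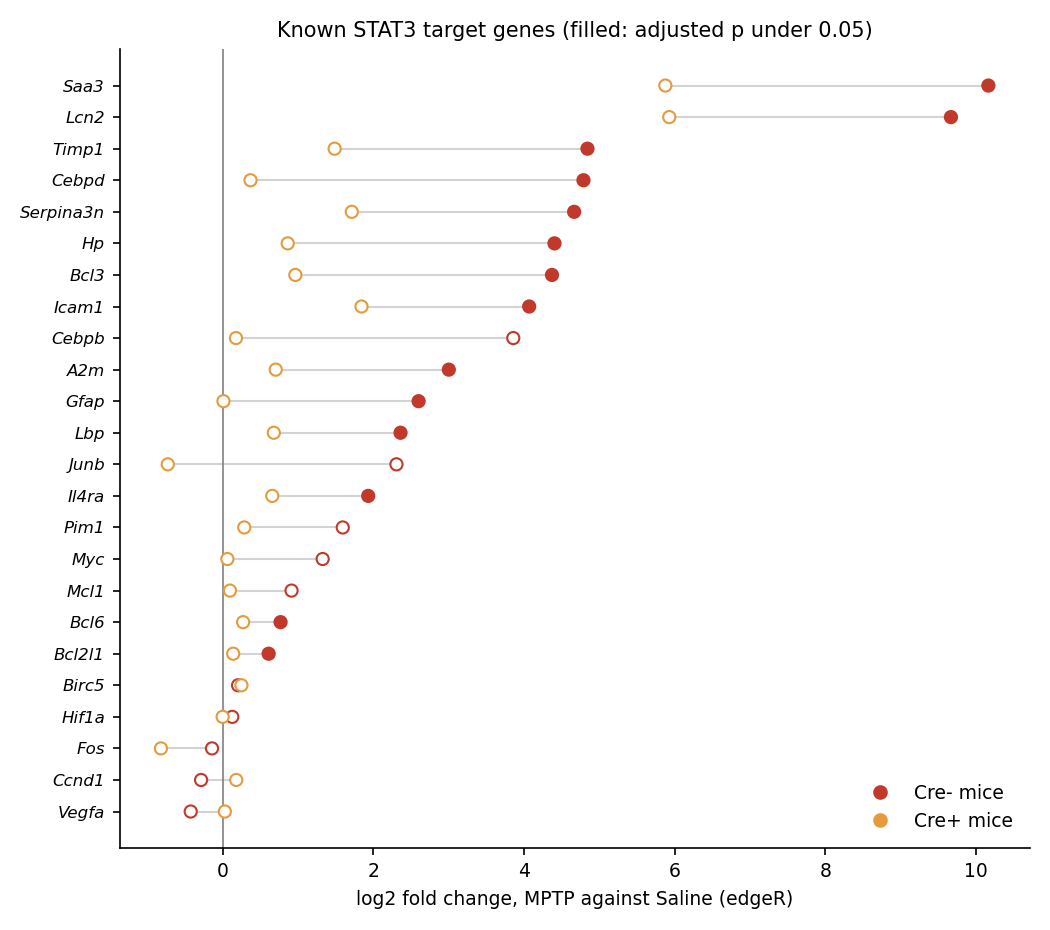
Log2 fold changes for MPTP against Saline (edgeR) of the 24 STAT3 target genes tested, in Cre- mice (red) and Cre+ mice (orange), sorted by the value in Cre- mice. Filled points passed an adjusted p of 0.05, which 14 did in Cre- mice and none in Cre+ mice (where 0% of all genes did). The red point lies to the right of the orange one for Saa3, Lcn2 and most others, but not for Ccnd1, Vegfa and Birc5.

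The STAT consensus was found in the windows of 5 of the 21 targets that had one. Among the 10 targets called in Cre- mice with a window these were Bcl6, Icam1 and Gfap. The stretches around the match are shown for Icam1 and Gfap, the leading targets by p that carry it, 5′ to 3′ with the match in capitals, from chr9:21015888-21015916 (plus strand, positions -42 to -34 from the start site) and chr11:102897184-102897212 (minus strand, across the start site). A match is only a run of letters, and no binding was measured.
Icam1: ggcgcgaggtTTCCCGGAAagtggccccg
Gfap: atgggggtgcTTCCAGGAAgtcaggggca

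The genes nearest to each member across the 13 libraries differed between the members that rose and those that did not. By Pearson's r of log2 CPM, given as a description over libraries that share groups and depth, Osmr was closest to Slc39a14 (0.987), a zinc transporter, and Cp (0.977), which encodes ceruloplasmin. Socs3 was closest to Fkbp5 (0.978), a glucocorticoid-induced gene, and Lrrc25 (0.977), and Stat3 to Susd6 (0.978) and Zc3h12a (0.978), an RNase that degrades cytokine mRNA. Il6ra was closest to Ms4a6d (0.966), a gene of myeloid cells, and Pros1 (0.963). The pair of chains that were not called had other neighbors: Il6st Mmp16 (0.980) and Gpam (0.970), and Lifr Insr (0.961) and Phka1 (0.956). Lif (Klf6, 0.810; Gm6170, 0.805) and Clcf1 (BC049762, 0.922; Taf5, 0.873) had weaker ones. Between members, r was 0.930 for Socs3 and Stat3, 0.940 for Il6ra and Osmr, and 0.177 for Il6ra and Il6st.

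Markers of several other cell types also differed between the groups. The 10 neutrophil markers summed to 3.41 to 5.08 CPM in Cre- Saline and 3.38 to 7.12 in Cre+ Saline mice, where Ly6g was at 0, to 31.4, 15.3 and 76.9 CPM in Cre- MPTP 1 to 3, and to 4.14, 8.67, 5.37 and 3.17 CPM in Cre+ MPTP 1 to 4. Of the 6 tested, 5 were higher with MPTP in Cre- mice (2.23% of all genes were) and 4 were lower between the genotypes under MPTP (1.03% of all genes). Of the 10 microglia markers 4 were called lower in Cre- MPTP mice (0.956% of all genes) and 4 higher between the genotypes (0.517% of all genes), with sums of 220 to 371 CPM in Cre- MPTP and 297 to 415 in Cre+ MPTP mice. Oligodendrocyte markers summed to 13200 to 18250 CPM in Cre- Saline and 9780 to 12540 in Cre- MPTP mice. In Cre+ mice they summed to 15910 to 17860 CPM with saline and to 11770 to 15280 with MPTP. Of the 10, 3 were called lower with MPTP in Cre- mice (0.956% of all genes) and 1 higher between the genotypes (0.517% of all genes). With MPTP in Cre+ mice none was called (0% of all genes), but all 10 log2 fold changes were negative, with a median of -0.36 (0.00 over all genes). Pericyte or smooth muscle markers summed to 351 to 421, 234 to 299, 354 to 363 and 323 to 427 CPM in the same groups and order. Of these 10, 1 was called lower with MPTP in Cre- mice (0.956% of all genes). None was called between the genotypes under MPTP by edgeR, where 4 had an unadjusted p under 0.05 (19% of all genes). Astrocyte markers summed to 3941 to 4672 CPM in Cre- Saline, 2881 to 4840 in Cre- MPTP and 4323 to 4643 in Cre+ MPTP mice, and 1 of 10, Aldh1l1, was higher with MPTP in Cre- mice (0.65 on the log2 scale, adjusted p = 0.0403 in edgeR). The summed markers of border macrophages or monocytes (13.9 to 38.3 CPM in Cre- MPTP, 17.2 to 32.2 in Cre+ MPTP) and of endothelium (358 to 544 and 364 to 476 CPM) overlapped between the MPTP groups, but single markers did not all move together. Of 9 border macrophage or monocyte markers tested, 2 were called higher and 1 lower with MPTP in Cre- mice (2.23% and 0.956% of all genes). Between the genotypes 1 was called higher and 1 lower (0.517% and 1.03% of all genes). Of 10 endothelial markers 1 was called lower with MPTP in Cre- mice (0.956% of all genes) and 2 higher between the genotypes (0.517% of all genes). Of 10 meningeal fibroblast markers 1 was called higher and 3 lower with MPTP in Cre- mice (2.23% and 0.956% of all genes), and none between the genotypes under MPTP. The part of these cells in the differences of the 10 genes was not tested.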

How the data were processed

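RNA-Seq libraries of 13 midbrains were made with a kit that keeps strand and read as pairs of 150 bases. The authors used Trimmomatic 0.36 for trimming, STAR 2.5.2b for alignment to GRCm38 and featureCounts of Subread 1.5.2 for counting uniquely assigned reads; the strand setting is not given in the sources used here. The deposited values are these raw counts for 49315 genes, of which 345 matched no GENCODE M21 symbol.

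Here counts were tested with edgeR 4.0.16 in R 4.3.3: TMM factors, genes with 10 or more counts in 3 or more libraries (19360), 1 term per group over all 13 libraries, the quasi-likelihood test and Benjamini-Hochberg adjustment over all genes, called under 0.05. CPM use TMM factors and RPKM the deposited exonic lengths. The standard error is the log2 fold change divided by the root of F. Il6 and Osm, under the filter, and log2 ratios were compared with exact permutation tests (SciPy 1.17.1). The floor was 3 counts per library; intervals and floors cover counting error only. Total counts of 11489150 to 29397278 limit precision for low genes. DESeq2 1.42.0, limma 3.58.1 (voom), other scalings and filters, a replicate block and each library left out were the alternatives; 2 more (2 libraries left out together, and the header number range as a term) were added after the values were seen. The fits were tested on simulated data.

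The 10 genes and all lists were chosen with earlier results of these data known. All 10 were named in each comparison; of the pathway lists, the called genes with the 4 smallest p in a comparison; and for each member tested, the 2 genes with the highest r of log2 CPM (prior count 2). Aldh1l1, Bcl6, Fgb, Fga, Saa3, Ccnd1, Vegfa and Birc5 were added to the names after their values were seen. Each mouse gave 1 library, and p-values measure the spread between mice. Same-numbered libraries did not deviate together (18 pairs, r -0.179 to 0.184, 3 over 0.1), so the numbers were not taken as pairs. The list of other STAT genes is not reported in full here.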

Additional observations from a re-analysis of the deposited data

Results flagged for a closer look

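For 3 of the 19 genes examined, the 4 Cre+ MPTP libraries held 1 that lay far from the other 3, and in each case it was Cre+ MPTP 2. About 1 of 20 groups shows such a gap by chance if values are normal and groups independent. These genes share the same 4 libraries and some were named by their calls, so the count is not set against that rate. Groups of 3 libraries were not examined, so Cre- MPTP 1 could not be flagged. For Il6 it was at 0.336 CPM, which is 6 counts, and the other 3 were at 0. For Gfap it was at 655 CPM, with the next library at 385 and the lowest at 331. For Lcn2 it was at 153 CPM, with the next at 25.8 and the lowest at 15.4. Leaving this library out moved the log2 fold change of Socs3 for MPTP in Cre+ mice from 0.96 to 0.24 and that of Osmr from 1.00 to 0.53. The part of this library's own state, cells or handling was not tested.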

How the results depend on the processing

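Of 736 recomputed log2 fold changes of the 10 genes' tested members, 659 kept their direction and side of the threshold, 22 lost a call, 24 gained one and 31 changed sign, none of them for a gene called in that comparison. The number called with MPTP in Cre- mice was 4, but 1 with edgeR on the 2 groups alone, which leaves fewer libraries to estimate the spread, 6 with limma voom, which added Lif and Lifr, and 4 to 5 with each library left out. Between genotypes under MPTP it was 3, but 0 with edgeR on the 2 groups alone, 0 with the replicate block, and 0 to 4 with each library left out. For the interaction it was 0, but 3 with DESeq2, 4 with limma voom, 4 without Cre- MPTP 1 and Cre+ MPTP 2 together, and 0 to 2 with each library left out. With MPTP in Cre+ mice and between genotypes under Saline it was 0 in every alternative. The cause of these changes was not tested, and the share of all genes called was taken only for the edgeR test used throughout. The replicate block changed no call of the 4 genes called with MPTP in Cre- mice; its numbers do not pair the mice.

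Changes of sign, on the log2 scale, were of genes not called. Ranges are over libraries left out in turn. With MPTP in Cre- mice, Il6st ranged from -0.011 (without Cre- Saline 1) to 0.31, and Clcf1 was -0.034 with limma voom. In Cre+ mice, Il6st was -0.018 with limma voom and -0.038 with the replicate block and ranged from -0.039 (without Cre+ MPTP 4) to 0.037; Lif was 0.11 with the header number range and ranged from -0.69 to 0.05 (without Cre+ MPTP 4); Lifr was -0.005 with the block and ranged from -0.01 (without Cre+ MPTP 4) to 0.14; Clcf1 was -0.10 with limma voom, -0.033 with the block and -0.28 without Cre- MPTP 1 and Cre+ MPTP 2 together, and ranged from -0.29 (without Cre+ MPTP 2) to 0.31. Between genotypes under MPTP, Il6st was -0.093 with limma voom and -0.075 without both libraries, and ranged from -0.079 (without Cre- MPTP 1) to 0.17; Lifr was -0.20 and -0.19 in the same fits and ranged from -0.19 (without Cre- MPTP 1) to 0.26. Under Saline, Il6ra was 0.099 with limma voom and ranged from -0.10 to 0.062, Clcf1 from -0.41 to 0.16, and Stat3 from -0.038 to 0.16. The interaction of Il6st ranged from -0.30 to 0.023. Depth limits Il6 and Osm, which hold at most 51 and 16 counts in a library.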
